A study of Mus musculus with 2 samples.

Results

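The 8 genes described here code for transcription factors that neurons use to turn activity into changes of gene expression, and for coactivators that work with them. They are Mef2a, Mef2c and Mef2d of the MEF2 family, Creb1 and Crem of the CREB family, the coactivators Crtc1 and Crebbp, and Srf, 8 of 21755 protein-coding genes. They were chosen by name for these pathways, with earlier results of the same data known, and not by any measured value. For each, all peaks, footprints and runs of bases with a low false discovery rate (FDR) were taken within the annotated gene body and 50 kb on each side, here called its reach. The reaches held 113 of 93545 peaks in replicate 1 and 94 of 79144 in replicate 2.

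The data are DNase-seq, in which DNase I cuts open chromatin, so that regulatory regions give peaks, and a bound protein leaves a short footprint of protected bases within a peak. Both libraries, 2 in all, were made from mice of strain B6CASTF1/J (first-generation hybrids of C57BL/6J and CAST) at an age of 25 days, labelled male and with no treatment named, and the tissue was labelled layer of hippocampus. They form 1 group, so no conditions can be compared. The layer is not named, both alleles were counted together, and the libraries share a donor entry under separate tissue samples. The labels therefore do not say whether the libraries came from separate animals, but their sex-linked peaks differed, and those of replicate 2 contradicted its label: Xist had a peak there (value 1.01) and none in replicate 1, and Ddx3y, Kdm5d and Uty on the Y chromosome had promoter peaks in replicate 1 alone. Where a direction is drawn, its name here is the library labelled male replicate 2, and each result is given for both libraries. Where a pair of values stands without names, replicate 1 comes first.

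MEF2 proteins bind an AT-rich site and recruit histone deacetylases or acetyltransferases depending on calcium signals, and in the hippocampus they limit synapse number. CREB is phosphorylated downstream of calcium and cyclic AMP, binds the cyclic AMP response element (CRE) and recruits the acetyltransferase CREB-binding protein (Crebbp) and CRTC coactivators, a route needed for long-lasting memory. SRF binds the CArG box together with ternary complex factors, which bind ETS sites, or with myocardin-related factors, and drives immediate early and cytoskeletal genes.

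All 8 genes had a promoter peak in both libraries, where 63.2% of all protein-coding genes did (13742 of 21755). A promoter peak reaches within 1 kb of an annotated start site. Peak values are the authors' signal, with no scale or cut depth stated. Crem had the strongest promoter by mean, with peak values of 4.66 and 4.55 (mean 4.60 ± 0.07, SD, n = 2). Mef2a had 4.78 and 3.91 (4.35 ± 0.61) and Creb1 4.11 and 4.51 (4.31 ± 0.28), and these 3 genes lay between the 94.1st and the 97.9th percentile of genes with a promoter peak in either library. The coactivator genes came next, Crebbp with 3.22 and 2.99 (3.10 ± 0.16) and Crtc1 with 2.97 and 2.89 (2.93 ± 0.06). Srf, with 2.32 and 2.64 (2.48 ± 0.22), and Mef2d, with 2.41 and 2.37 (2.39 ± 0.03), were near the medians of 2.17 and 2.08 over all such genes. Mef2c had the weakest promoter peak, 1.25 and 1.18 (1.22 ± 0.05), at the 22.3rd and 22.95th percentile. The order of Mef2a, Creb1 and Crem changed with the library, as did that of Mef2d and Srf, whereas Mef2c was lowest in both.

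**Figure D1:**
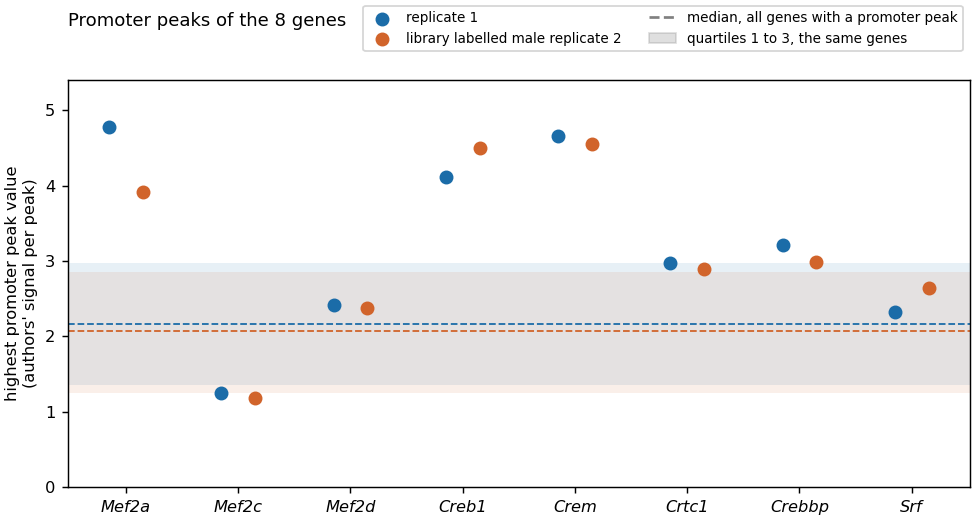
Highest promoter peak value (authors' signal, vertical axis) of each of the 8 genes, 1 point per library; dashed lines and bands give the median and the middle quartiles of all genes with a promoter peak in that library. Mef2a, Creb1 and Crem sit above 3.9 in both libraries, and Mef2c at 1.25 and 1.18.

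Away from promoters the 8 genes also differed. A distal peak overlaps no promoter window of any protein-coding gene, and each count was placed among the 200 genes nearest in length. Mef2d had 39 and 26 distal peaks (32.5 ± 9.19, SD, n = 2), against a median of 3 for genes of like length in each library, the 99.75th and 99.5th percentile. Mef2c had 12 and 15 (13.5 ± 2.12, median 6), Crtc1 14 and 5 (9.5 ± 6.36, median 4) and Srf 5 and 5 (median 2). Mef2a had 4 and 9 (6.5 ± 3.54, medians 6 and 5). Crebbp had 4 and 2 (3.0 ± 1.41, medians 6 and 5), Creb1 2 and 0, and Crem none in either library, with a median of 4 for genes of the length of Creb1 and of Crem. By the mean percentile of both libraries 4 of 8 genes, Mef2d (99.6), Mef2c (84.6), Crtc1 (81.1) and Srf (76.5), stood at or above the 75th, where 23.4% of all protein-coding genes did. Creb1 and Crem, whose promoter values were above 4 in both libraries, had the fewest distal peaks, with mean percentiles of 12.75 and 3.5. For Creb1 this held near the gene only, and with 100 kb on each side it stood at 46.1. In replicate 1 alone Srf fell just short of the 75th (74.5), and in the library labelled male replicate 2 alone Crtc1 did (68.5) while Mef2a reached 81.25.

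**Figure D2:**
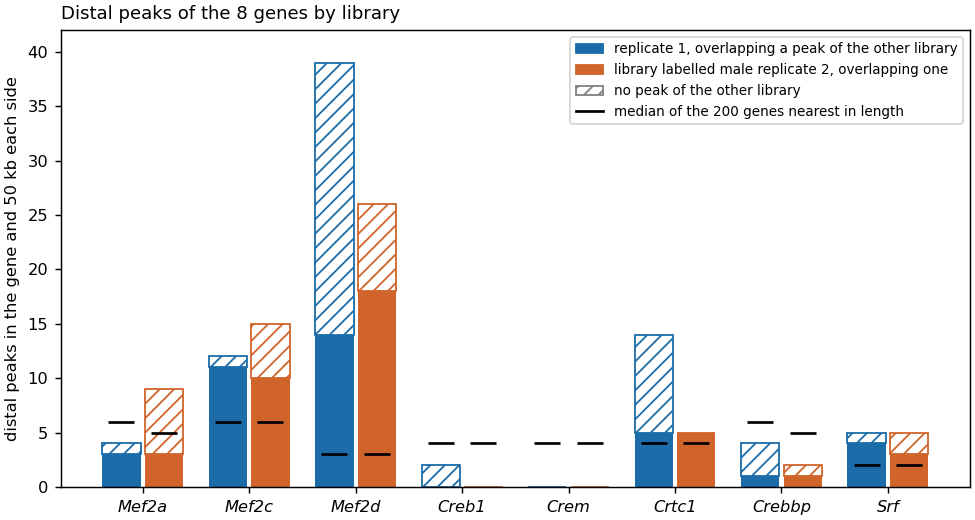
Distal peaks (count, vertical axis) in the reach of each gene by library, with filled bars for peaks that overlap a peak of the other library, hatched bars for those that do not, and black marks for the median of the 200 genes nearest in length. Mef2d reaches 39 and 26 against a median of 3, and Crem has no bar.

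Mef2a (chromosome 7 from 67231163 to 67372858 in mm10, minus strand) codes for a MEF2 factor of adult neurons, heart and muscle. Its open chromatin was concentrated at the 5′ end of the gene. The main peak covered 67372941 to 67373040 in replicate 1 and 67372781 to 67373200 in replicate 2, and bases with an FDR under 0.05 covered 1738 and 1946 bp of the window around its start sites. None of the 4 other groups of annotated start sites further into the gene had a peak or a base with such an FDR. The merged region held 12 and 10 footprints, and 8 of those of replicate 1 overlapped a footprint of replicate 2. The stretch before the start is shown on the gene's strand because the footprints lie densely in it; capitals mark the bases in footprints of both libraries.
Mef2a promoter, chr7:67372866-67373125: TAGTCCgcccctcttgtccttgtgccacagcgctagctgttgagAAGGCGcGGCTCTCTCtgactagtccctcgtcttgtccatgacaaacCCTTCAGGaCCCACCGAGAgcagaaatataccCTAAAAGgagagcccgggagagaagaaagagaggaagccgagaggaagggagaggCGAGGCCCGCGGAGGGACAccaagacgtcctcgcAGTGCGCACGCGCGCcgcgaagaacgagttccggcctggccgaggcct
A match to the MEF2 site, CTATTTTTAG on the plus strand, lay across the annotated 5′ end itself, from 67372851 to 67372860. It was in no footprint, and the nearest footprints lay 2 and 6 bp away.

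The gene body of Mef2a held no distal peak in replicate 1 and 3 weak ones in replicate 2. The strongest distal region found in both libraries lay past its 3′ end, at 67199501 to 67199800, with values of 0.98 and 1.17. Its footprint of both libraries covers a match to the core of the binding site of CTCF, the factor that marks chromatin boundaries, and is shown in capitals on the strand of Mef2a.
Mef2a distal region, chr7:67199533-67199662: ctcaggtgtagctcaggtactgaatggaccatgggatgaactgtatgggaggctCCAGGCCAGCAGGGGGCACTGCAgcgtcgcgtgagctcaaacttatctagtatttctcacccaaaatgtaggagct
Between it and the gene lay the promoter of Lysmd4, with values of 2.64 and 2.55.

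Mef2c (chromosome 13 from 83504034 to 83667080, plus strand) codes for the MEF2 factor of excitatory neuron development, and microglia, endothelium and muscle use it too. Its first group of start sites, at the 5′ end, had no peak and no base with an FDR under 0.05 in either library. The promoter peaks lay at an internal group whose first start site is 19439 bp further in. There the region from 83523541 to 83524000 had values of 0.95 and 0.78 and the one from 83524221 to 83524880 had 1.25 and 1.18. In the RefSeq promoter table, which gives windows of 300 bases (250 before and 50 after a start), the 5′ window of Mef2c had 35.7% G and C with 1 CpG, the internal one at the open group 47.0% with 10 CpG, and a second internal one, from 83573357 to 83573656 with no peak in either library, 48.3% with 4 CpG. The single windows of Mef2a, Mef2d, Creb1, Crtc1, Crebbp and Srf in that table had 62.3% to 82.0% with 24 to 49 CpG, every base of them listed with an FDR under 0.05 in both libraries. The table matched 7 of the 8 genes, all but Crem.

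Distal peaks of Mef2c came in groups. Regions with a peak in both libraries lay in introns at 83518321 to 83518500 (1.67 and 1.26), 83537261 to 83537460 (1.05 and 0.87) and 83654981 to 83655160 (1.92 and 1.63), and at a coding exon near the 3′ end at 83662061 to 83662597 (1.40 and 1.01). A cluster of 5 regions, all in both libraries, followed from 83712781 to 83717220, past the 3′ end. The reach ended within the last of them, at 83717080, so the end of the cluster was set by the reach. With 100 kb on each side Mef2c had 34 and 37 distal peaks. The strongest region of the cluster, at 83715041 to 83715500, had values of 2.69 and 2.58, more than the promoter of the gene in each library. It held 9 and 5 footprints, and 5 of those of replicate 1 overlapped one of replicate 2. The stretch with these footprints in capitals is shown because it was the most open shared distal place in the reach of Mef2c.
Mef2c downstream region, chr13:83715116-83715375: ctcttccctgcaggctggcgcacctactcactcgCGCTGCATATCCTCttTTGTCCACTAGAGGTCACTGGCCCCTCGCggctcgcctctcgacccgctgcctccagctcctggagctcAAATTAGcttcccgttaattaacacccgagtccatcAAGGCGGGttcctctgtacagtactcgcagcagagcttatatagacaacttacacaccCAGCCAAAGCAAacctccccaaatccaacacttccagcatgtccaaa
The intron region at 83654981 held a match to the CTCF core in a footprint of both libraries, in capitals here.
Mef2c intron region, chr13:83655032-83655121: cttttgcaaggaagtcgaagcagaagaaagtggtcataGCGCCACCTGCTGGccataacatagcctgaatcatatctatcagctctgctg
Of the distal peaks of Mef2c, 11 of 12 and 10 of 15 overlapped a peak of the other library, against 14 of 39 and 18 of 26 at Mef2d, the other gene with more than 5 distal peaks in each library. The share of Mef2c was the higher one in replicate 1 and the lower one in replicate 2, and neither difference was tested.

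Mef2d (chromosome 3 from 88142372 to 88172086, plus strand) codes for a MEF2 factor abundant in mature neurons. Its 5′ end had a broad peak of 2.41 and 2.37, with 11 footprints in each library. The part of the promoter before the start is shown with the bases in footprints of both libraries in capitals; one of them covers a match to GGGCGG on the opposite strand, the GC box of SP and KLF factors.
Mef2d promoter, chr3:88142172-88142371: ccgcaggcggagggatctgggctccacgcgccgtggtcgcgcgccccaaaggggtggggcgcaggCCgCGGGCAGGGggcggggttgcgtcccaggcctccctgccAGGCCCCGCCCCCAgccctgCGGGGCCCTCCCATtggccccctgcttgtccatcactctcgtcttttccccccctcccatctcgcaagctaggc
The number of distal peaks was the highest of the 8 genes in both libraries, and the excess of replicate 1 lay mostly inside the gene, with 16 distal peaks in the gene body against 4. Of the distal peaks of replicate 1, 14 of 39 overlapped a peak of the library labelled male replicate 2, and 18 of 26 did the other way. Bases with an FDR under 0.05 covered 13.98% of the reach in replicate 1, and a smaller 5.74% in the library labelled male replicate 2, against 1.275% and 1.015% of all chromosomes. Of those bases, 34.6% of replicate 1 were also listed in the other library, and 84.2% the other way.

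The strongest distal region of all 8 genes lay 35498 bp downstream of the 5′ end of Mef2d, at 88177661 to 88178080, with values of 5.48 and 3.39. It lies within 1 kb of a start of the noncoding gene 1700113A16Rik, and its peak was stronger than the promoter of Mef2d in both libraries. It held a match to the CArG box, outside the footprints of both libraries, shown in capitals.
Mef2d downstream region, chr3:88177641-88177730: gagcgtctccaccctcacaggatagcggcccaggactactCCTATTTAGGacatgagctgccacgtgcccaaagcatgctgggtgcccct
Upstream, at 88138341 to 88139331 (1.99 and 2.27), a region of both libraries held a full CRE, in capitals, whose middle was in a footprint of replicate 2 and 36 bp from the nearest footprint of replicate 1.
Mef2d upstream region, chr3:88138385-88138504: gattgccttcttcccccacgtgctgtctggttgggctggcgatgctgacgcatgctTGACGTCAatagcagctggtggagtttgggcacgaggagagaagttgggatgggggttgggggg
Further downstream the distal peaks lay among noncoding genes, and 14 of 39 and 12 of 26 distal peaks of Mef2d were within 1 kb of a noncoding start. The region from 88206801 to 88207520 (1.92 and 1.61), near the noncoding gene Gm3764, held a short CRE form, TGACG on the minus strand at 88207245 to 88207249, that lay whole in a footprint of both libraries. The strongest peak of a single library, 1.87 in replicate 1 at 88214161 to 88214629, was within 1 kb of Mir9-1, which codes for a microRNA of neural cells. It and 3 neighbouring regions (1.48 to 1.55) had no peak in the library labelled male replicate 2, where 40 bp of the first were listed with an FDR under 0.05. Which gene these distal peaks serve was not tested.

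**Figure D3:**
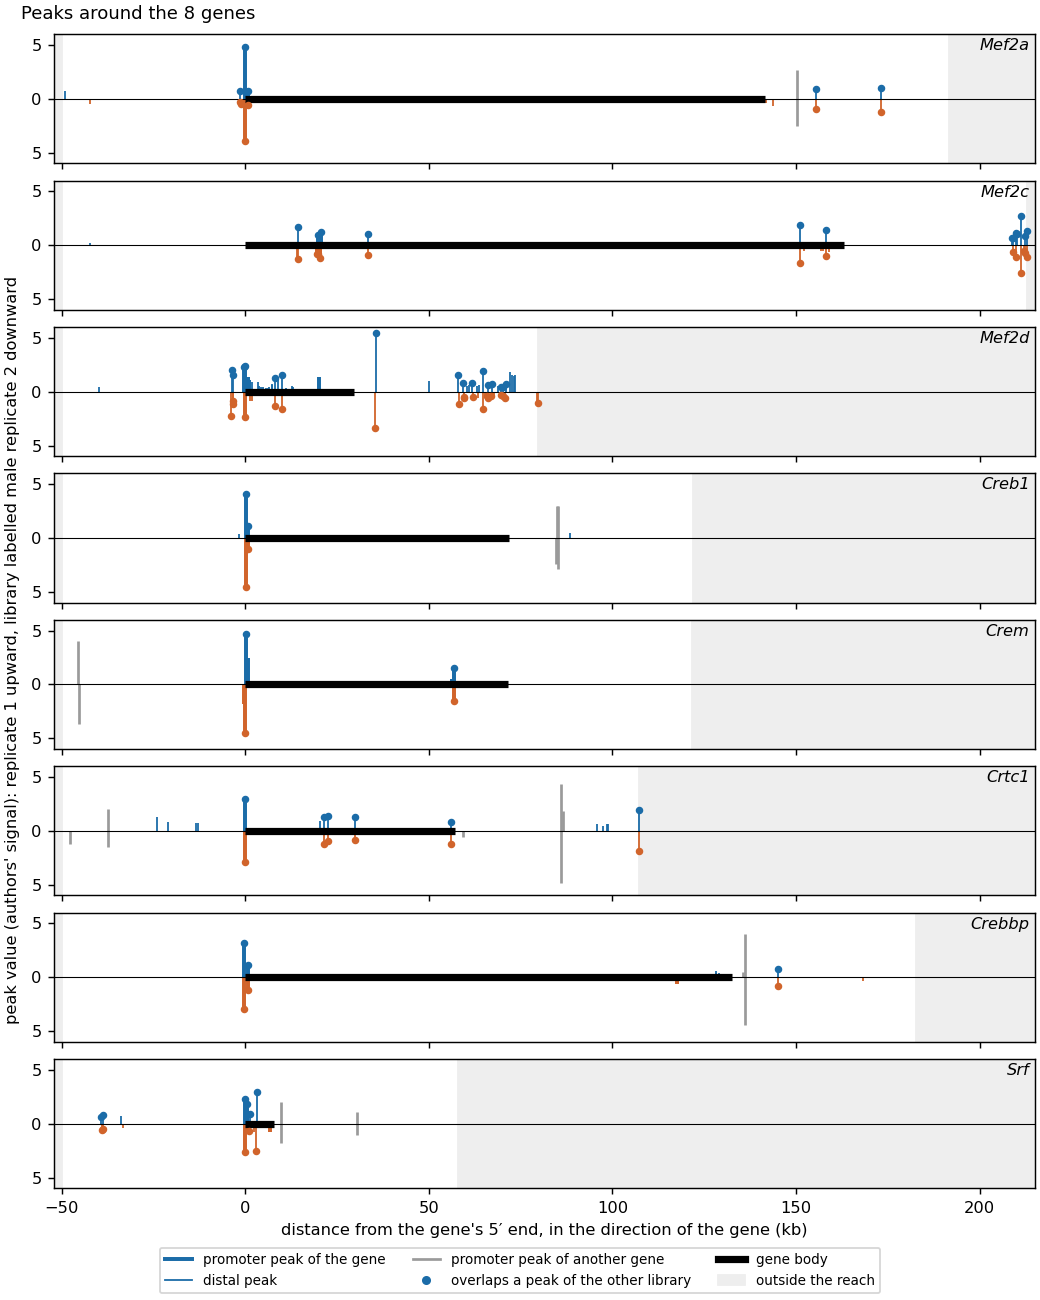
Peak value (authors' signal, vertical axis; replicate 1 upward, the library labelled male replicate 2 downward) against distance from the 5′ end of each gene in kb; thick lines are promoter peaks of the gene, thin lines distal peaks, grey lines promoter peaks of other genes, and dots mark peaks that overlap a peak of the other library. Mef2d shows runs of peaks in and past the gene in both libraries, and Creb1 and Crem show promoters with few other peaks in the reach.

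Creb1 (chromosome 1 from 64532645 to 64604548, plus strand) codes for CREB itself. Within its reach, and apart from a neighbouring gene's promoter, peaks of both libraries lay at its promoter alone. The region from 64532601 to 64533100 had values of 4.11 and 4.51 with 10 and 8 footprints, of which 6 of replicate 1 overlapped one of replicate 2, and the first intron added a weaker region (1.15 and 1.03) with no footprint. The lowest FDR in the main peak was very low, at 37.7 and 50.5 as −log10. Of the 2 distal peaks of replicate 1, at 0.37 and 0.47, neither had a partner, and the rest of the reach held the promoter of Mettl21a in both libraries (up to 2.996 and 2.86). That promoter held a CArG box at 64617227 to 64617236 whose edge, but not its middle, was in a footprint of each library.

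Crem (chromosome 18 from 3266048 to 3337748, minus strand) codes for CREM activators and, from an internal promoter, for the repressor ICER, which cyclic AMP induces. It was the one gene of the 8 with 2 groups of start sites open in both libraries. At the 5′ end the peak from 3337361 to 3337780 had values of 4.66 and 4.55, the lowest FDR of all promoters of the 8 genes (65.4 and 59.9 as −log10), and a CTCF core match in a footprint of both libraries. At the internal group the region from 3280781 to 3281120 had values of 1.49 and 1.53 with 8 and 7 footprints, 4 of replicate 1 overlapping one of replicate 2. That region held a full CRE at 3281101 to 3281108, 3 bp before an annotated start, and a MEF2 site at 3280841 to 3280850. Neither match had its middle in a footprint of either library. The 4 groups of start sites between had no peak in either library. The only other open place in the reach was the promoter of Cul2 (4.00 and 3.69). Of the other members, Mef2d (1.33 in replicate 1), Crebbp (0.61 in replicate 2) and Srf (0.75 in replicate 2) had a further start site group with a peak in that library alone.

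Crtc1 (chromosome 8 from 70382355 to 70439579, minus strand) codes for the CREB coactivator that moves from synapse to nucleus in hippocampal neurons. Its promoter region, 70439341 to 70440000, had values of 2.97 and 2.89 and held 8 and 4 footprints, 4 of replicate 1 overlapping one of replicate 2. All 5 distal peaks of the library labelled male replicate 2 overlapped one of replicate 1, where 9 of 14 had no partner. Of these shared regions 4 lay in the gene body, and by the mean of both libraries the strongest were in introns at 70416824 to 70417320 (1.39 and 0.91) and 70417905 to 70418303 (1.32 and 1.19). In the library labelled male replicate 2 the region over a UTR at 70383401 to 70383580 was the highest of the 4 (0.87 and 1.22). The strongest shared distal region counted, at 70332061 to 70332380 (1.90 and 1.84), lay in a UTR of Upf1, a gene of RNA decay. The reach began at 70332355, so most of this region lay outside it. The reach also held promoter peaks of Upf1 and Klhl26 in both libraries and of Comp and Tmem59l in replicate 2 alone, the strongest at Upf1 with 4.34 and 4.87.

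Crebbp (chromosome 16 from 4081328 to 4213997, minus strand) codes for CREB-binding protein. The region before its start, 4214041 to 4214420, had values of 3.22 and 2.99 with 8 and 7 footprints, and a second region from 4212961 to 4213500 had 1.14 in both. A short CRE form, TGACG, had its middle in a footprint of both libraries at 4214067 to 4214071. The gene body of 132670 bp held 3 distal peaks in replicate 1, all over coding exons at the 3′ end (0.37 to 0.61), and none in replicate 2. The shared distal region of the reach, 4068629 to 4068900 (0.76 and 0.83), lay in Trap1, a gene for a mitochondrial chaperone. The promoter of Trap1 (4.06 and 4.46) held a full CRE whose middle was in a footprint of both libraries. No other full CRE did so in the regions of the 8 reaches with a peak in both libraries. The stretch at Trap1 is shown on the strand of Crebbp with the CRE in capitals.
Trap1 promoter, chr16:4077828-4077913: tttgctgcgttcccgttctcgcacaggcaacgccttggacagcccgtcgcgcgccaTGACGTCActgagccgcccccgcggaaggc

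Srf (chromosome 17 from 46548329 to 46556175, minus strand) codes for serum response factor and is itself known as an SRF target. Its promoter region covered 46555341 to 46556500, with values of 2.32 and 2.64. It held a pair of CArG boxes, 44 and 64 bp before the start, and the stretch is shown with both in capitals.
Srf promoter, chr17:46556176-46556319: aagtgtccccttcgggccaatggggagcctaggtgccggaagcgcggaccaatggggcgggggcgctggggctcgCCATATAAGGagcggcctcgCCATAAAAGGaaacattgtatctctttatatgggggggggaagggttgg
Neither box had its middle in a footprint, although every base of this window was listed with an FDR under 0.05 in both libraries. A footprint of replicate 2 touched the edge of the box nearer the start, whereas in replicate 1 the nearest footprints were 17 and 37 bp away. A CCAAT box on the gene's strand, 126 bp before the start, did lie in a footprint of both libraries. Inside the gene the region from 46552961 to 46553360 had values of 2.98 and 2.49, against 2.32 and 2.64 at the promoter, with 3 and 6 footprints; it lies near the microRNA gene Mir6976. Upstream, in an intron of Ptk7, a region from 46594805 to 46595439 (0.78 and 0.63) held a full CRE whose middle was in a footprint of replicate 1 alone, while the middle of the short form at 46594947 to 46594951 within it was in a footprint of both libraries.
Srf upstream region, chr17:46594888-46595007: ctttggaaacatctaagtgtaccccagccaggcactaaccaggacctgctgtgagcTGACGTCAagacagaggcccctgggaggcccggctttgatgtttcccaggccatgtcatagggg

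**Figure D4:**
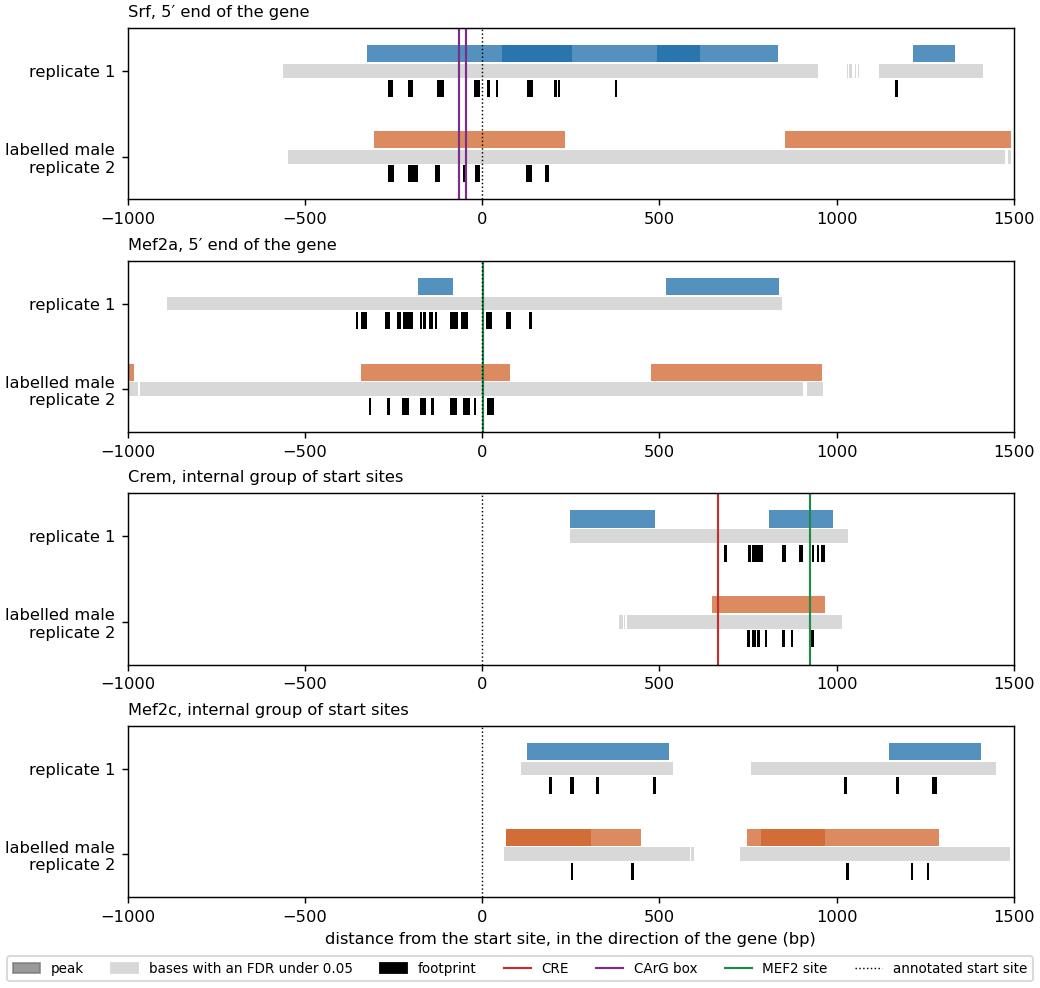
Peaks (coloured), bases with an FDR under 0.05 (grey) and footprints (black) of each library against distance from the start site in bp, for the 5′ ends of Srf and Mef2a and the internal start sites of Crem and Mef2c; vertical lines mark matches to the CRE, the CArG box and the MEF2 site. For the internal groups the distance is from the most upstream start site, and further start sites of the group lie downstream. The CRE of Crem, drawn at 661 to 668 bp, lies just before such a later start. The CArG pair of Srf and the MEF2 site of Mef2a stand in open bases beside footprints rather than in the middle of one.

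Sequence matches were then counted over the 57 regions of the 8 reaches that had a peak in both libraries. Searches covered both strands, and a full CRE (TGACGTCA), which reads the same on both, also counts as the short form on each strand. The full CRE was found in 4 regions (7.02%), against 1.52% of 50949 shared regions of the genome and 1.79% of 32851 RefSeq promoters. The short form TGACG was found in 18 regions (31.6%, against 24.2% and 20.8%) and the CArG box in 3 (5.26%, against 1.34% and 1.63%). The MEF2 site was found in 2 (3.51%, against 1.93% and 3.19%) and the AP-1 site TGANTCA in 5 (8.77%, against 8.73% and 7.81%). The share of regions with a match varied with region length, so regions of like length were also counted. Of 648 shared regions within 10% of the length of the Srf promoter region, 2.62% held a CArG box. Of 6428 near the length of the internal Crem region, 1.45% held a full CRE and 2.26% a MEF2 site. For the other regions with a full CRE, such shares of the full CRE were 2.24% (upstream of Mef2d), 2.335% (Trap1 promoter) and 2.34% (intron of Ptk7). These are counts of a few matches in genes chosen for these pathways, and no test was made over them.

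Of the 4 full CREs, 2 had their middle in a footprint of replicate 1, 2 in one of replicate 2 and 1 in both. Over all shared regions 49.4% and 58.7% of 809 full CREs did, and 41.8% in both. None of the 4 CArG boxes, the 2 MEF2 sites or the 5 AP-1 sites had its middle in a footprint of either library. Over all shared regions few did: 7.17% and 7.46% of 697 CArG boxes, 3.43% and 4.61% of 1020 MEF2 sites, and 4.335% and 3.945% of 4867 AP-1 sites. All 4 CTCF core matches of these regions, near Mef2a, in Mef2c, at the 5′ end of Crem and at Cul9 in the reach of Srf, were in a footprint of both libraries, where 80.01% of 3077 over all shared regions were. The NRF1 core GCGCATGC occurred 3 times, overlapping, at the promoter of Upf1 in the reach of Crtc1, each time in a footprint of both libraries (48.2% of 1930 over all shared regions). A match describes letters and not binding, and the absence of a footprint over one says nothing about the factor. All letters searched and shown are those of the reference build. The CAST allele of these hybrid mice may differ from them and was not searched.

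Footprints were as dense as elsewhere. The 57 regions held 244 and 182 footprints, 9.52 and 7.10 per kb, against 8.64 and 7.28 per kb over all shared regions. Of these, 38.5% and 51.1% overlapped a footprint of the other library, against 37.7% and 44.8%. Shares were higher at promoters of the 8 genes (49.4% and 58.0%) than at their distal regions (30.2% and 36.5%), and over all shared regions they were 39.2% and 47.6% at promoters and 35.8% and 41.4% at distal regions. Crem had the densest footprints, 20.5 and 18.75 per kb over its 3 shared regions, 1 of them the Cul2 promoter, and Mef2d (7.49 and 5.37) and Srf (7.97 and 5.41) the sparsest by the mean of both libraries.

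The libraries gave similar values where both had a peak. Over 44 regions of the reaches with 1 peak in each library, log2 of the value of replicate 1 over that of the library labelled male replicate 2 had a median of 0.15 and ranged from -0.49 to 0.92. All 44 lay within 2-fold, as did 98.7% of 44184 such regions in the genome, whose median was 0.11. Of the distal peaks of the 8 genes, 47.5% of those in replicate 1 (38 of 80, exact 95% interval 36.2 to 59.0) and 64.5% of those in replicate 2 (40 of 62, 51.3 to 76.3) overlapped a peak of the other library. For all distal peaks the shares were 51.5% and 64.7%, inside these intervals, which cover counting error only. Some peaks overlap another peak of the same library, as at Mef2c and Mef2d. All counts and intervals treat each of them as a separate peak. Distal peaks without a partner were weaker, with medians of 0.60 and 0.54 against 1.05 and 0.92 for shared ones. Of those without a partner, 4 of 42 (9.52%) and 4 of 22 (18.2%) held a base that the other library lists at an FDR under 0.05, near the 9.89% and 15.65% of all such distal peaks. Promoter peaks of the 8 genes were shared in 15 of 22 and 16 of 20 cases, against 78.0% and 85.0% of all promoter peaks. Of the unshared ones 6 of 7 and 2 of 4 held such a base in the other library, against 25.2% and 48.9% over all. Runs of at least 50 bp with an FDR under 0.05 outside the peaks of their own library were rare, with 3 for Mef2d and 2 for Crtc1 in replicate 1 and 1 each for Mef2a and Mef2c in the library labelled male replicate 2. The longest had 240 bp, and none overlapped a peak or a run of the other library.

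**Figure D5:**
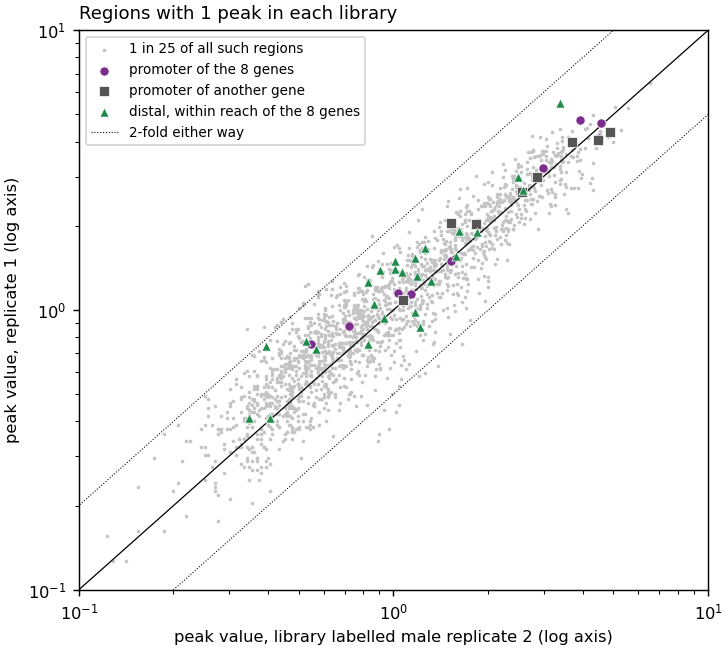
Peak value in replicate 1 (vertical) against the library labelled male replicate 2 (horizontal), both on log axes, for regions with 1 peak in each library; grey points are 1 in 25 of all such regions, coloured points those in reach of the 8 genes, and dotted lines mark 2-fold. All 44 coloured points lie within 2-fold.

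The other genes of these pathways were described by the same counts. All 63 had a promoter peak in both libraries (63.2% of all protein-coding genes), so this did not set the 8 genes apart from their partners. At or above the 75th percentile of distal peaks stood 22 of 63 (23.4% of all). By list, in the order below, these were 0 of 9, 5 of 24, 4 of 6, 3 of 8 and 10 of 16. The known targets thus made up 10 of the 22. The 9 further CREB family and coactivator genes had a median percentile of 49.25 (50.5 over all genes), from Crtc2 (21.25, with 1 and 0 distal peaks), a CRTC coactivator, to Atf4 (71.9, 5 and 4), the factor of the integrated stress response. The 24 kinases, phosphatases and second messenger enzymes had 60.9, and the highest of them was Mapk7 (90.6, 13 and 6), a kinase that activates MEF2. The 6 further MEF2 genes and repressors had 82.1, from Hdac9 (38.4, 13 and 10) to Hdac5 (97.25, 17 and 18), both class IIa histone deacetylases that MEF2 binds. The 8 SRF partners and upstream genes had 68.0, from Rhoa (17.0, 1 and 1), the GTPase that frees myocardin-related factors, to the ternary complex factor gene Elk4 (84.1, 9 and 5). The 16 known targets in neurons had 90.0, with 10 of 16 at or above the 75th, from Pcsk1 (39.1, 1 and 4), a prohormone convertase, to the clock gene Per1 (100, 41 and 27), where all 200 genes of like length had fewer. These lists were drawn up with results on activity-regulated genes known and were not tested.

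Since MEF2 and SRF also serve other cells, markers of those cells were checked in the same tissue. A promoter peak in each library stood at 3 of 3 excitatory neuron genes, at Prox1 of dentate granule cells and Wfs1 of CA1 pyramidal cells, and at 1 of 3 inhibitory neuron, 2 of 3 astrocyte and 1 of 3 oligodendrocyte genes. The counts were 0 of 3 microglia, 0 of 3 endothelial, 1 of 3 mural and 0 of 4 skeletal muscle and heart genes. A promoter peak in replicate 1 alone stood at Gad2 (0.83) and Slc32a1 (0.49) of inhibitory neurons, Olig2 of oligodendrocytes (1.00), Csf1r of microglia (0.86), Rgs5 of mural cells (0.66) and Myod1 of skeletal muscle (0.47), and in replicate 2 alone at Pecam1 of endothelium (0.53). Distal peaks ranged from 3 (P2ry12) to 10 (Cx3cr1) in replicate 1 and from 4 to 15 in replicate 2 over the microglia genes, and from 0 (Tek) to 12 (Pecam1) and 0 to 8 over the endothelial genes. Over the muscle and heart genes they ranged from 3 (Myh6) to 20 (Myog) and from 2 to 14. Over the mural genes they ranged from 1 (Acta2 and Rgs5) to 5 (Myh11) and from 1 to 3. Median distal percentiles were 69.1 (microglia), 56.5 (endothelial), 55.1 (muscle and heart) and 33.5 (mural), against 50.5 over all genes. Single genes of these lists went from Tek (2.25) to Myog (97.25). The part of such cells in the peaks of Mef2a, Mef2c and Srf was not tested. In tissue, a place open in few cells and one open weakly in many cannot be told apart.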

How the data were processed

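DNase-seq files of 2 libraries were used, 1 group of biological replicates as the labels number them. Per the file headers the assembly was mm10. The aligner, peak caller, footprint caller and scaling were not given in the sources used here. Each peak carries the authors' signal value, taken from the longer of both peak lists. The authors' FDR, a p-value type quantity, was deposited for runs of bases under 0.05. The cut depth is unknown.

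Genes came from GENCODE M21, sequence from GRCm38.p6 (the same build) and promoter windows from RefSeq. Overlaps of at least 1 bp were counted in Python 3.11.15 (pandas 2.3.3, pysam 0.24.0), figures drawn with matplotlib 3.10.9. Peaks of both libraries were merged into regions, and a footprint belongs to the peak or region that holds its middle base. Intervals on shares are exact (Clopper-Pearson, 95%). Percentiles rank a gene's distal peaks among the 200 genes nearest in length, with ties at the mean rank; this step was tested on simulated data. Motifs were searched as letters: CRE, its short form, CArG box, MEF2 site and AP-1 site, and, added after the data were seen, SP/KLF, ETS, NFY, NRF1, bHLH and CTCF motifs.

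The members and lists were chosen with earlier results of these data known, so no test was made over them. Text names all 8 genes, their strongest promoter and distal peaks, matches of the first 5 motifs in footprints of both libraries, and of other pathway genes the highest and lowest distal percentile in each list. Other regions and matches were chosen after their values were seen. Sequence of Crem is not reported here.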

Additional observations from a re-analysis of the deposited data

How the results depend on the processing

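All 8 genes kept a promoter peak in both libraries with the authors' shorter peak list and with windows of 500 bp or 2.5 kb, and in either library alone. Between 3 and 4 genes stood at or above the 75th distal percentile under every alternative tried, but not the same ones: Srf fell to 57.25 with the shorter list, and Mef2c to 73.1 in gene bodies alone and 66.75 with 10 kb on each side. The 142 distal peaks of both libraries became 69 with the shorter list, 52 in gene bodies alone, 64 with 10 kb and 253 with 100 kb on each side, 77 without Mef2d (chosen after seeing the data), and 62 to 80 with 1 library left out. Crem had none under any of these reaches. Creb1, with 2 and 0 in the main count, had 6 and 6 with 100 kb on each side. Its mean percentile was 46.1 there, against 12.75 in the main count. The share of distal peaks found in the other library, 54.9%, was 24.65% with a reciprocal overlap of 50%, 44.2% in gene bodies alone and 64.5% for replicate 2 alone. The 439 footprints in peaks were 189 to 250 with 1 library left out. The 6 matches to the 5 motifs of these pathways in footprints of both libraries were 10 to 12 with 1 library left out. They were 1 full CRE and 5 short forms, and none was a CArG box, MEF2 site or AP-1 site. The full CRE, at Trap1, also counts among the short forms on each strand, so the 6 are not all separate places. The median log2 ratio of replicate 1 over replicate 2, 0.15, became -0.061 with values divided by each library's median over shared peaks. No paired analysis was possible because there is 1 group. The number of libraries and the unknown depth limit the precision, and a place with no peak may be open below the authors' threshold.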
